A study of Mus musculus with 15 samples.

Results

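Peroxisome proliferator-activated receptors (PPARs) and genes of fatty acid oxidation were followed in a mouse macrophage line, RAW264.7, across 5 treatment groups. They are 9 genes, chosen by name: the receptors Ppara, Ppard and Pparg, the mitochondrial enzymes Cpt1a, Cpt2 and Acadvl, and the PPAR targets Angptl4, Fabp4 and Pdk4. Each was read from its probe set with that symbol alone, and each had 1 such probe set. They are 9 of 22180 genes with a probe set of their own, and 8 of the 9 passed the filter on dim genes described below, as 15468 genes did. All groups were of the same cell line, so no primary macrophage was measured, and every well carried 0.1% ethanol as vehicle. Cells without LPS received PBS in medium in its place and vehicle. The other 4 groups received lipopolysaccharide (LPS, the endotoxin of Gram-negative bacteria) at 1.0 µg/mL after a pre-incubation of 30 min. What was present in that step differed: vehicle alone, 13-HDHEA at 5.0 µM, 16-HDHEA at 5.0 µM, or the 2 compounds together at 2.5 µM each, called the combined treatment here. HDHEA stands for hydroxydocosahexaenoyl ethanolamide, an oxidised N-acyl ethanolamine of the fatty acid docosahexaenoic acid, and the compounds differ in the carbon that carries the hydroxyl group. Cells were harvested after 24 h. Each group had 3 arrays, 1 from each of 3 experiments that the labels tell apart by an identifier, and this number limits the precision of every value.

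PPARs are nuclear receptors that bind fatty acids and their derivatives. Each pairs with a retinoid X receptor on DNA, at repeats of the core AGGTCA, and recruits coactivators when a ligand is bound. Ppara is best known from liver, where it drives fatty acid oxidation in fasting, Ppard is broadly expressed, and Pparg directs fat cell formation and is also active in macrophages, where it restrains inflammatory genes. Long-chain fatty acids enter mitochondria through the carnitine shuttle, with Cpt1a on the outer and Cpt2 on the inner membrane, and Acadvl carries out the opening step of their beta-oxidation. Angptl4, a secreted inhibitor of lipoprotein lipase, Pdk4, a kinase that shuts off pyruvate dehydrogenase, and Fabp4, a cytosolic fatty acid carrier, are widely used readouts of PPAR activity.

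For 7 of the 9 genes a RefSeq promoter entry (GRCm38.p6) was at hand, with 9 start sites in all, and Angptl4 and Fabp4 had none. The 250 bases before 3 of these starts are shown, those of the receptors that moved in opposite directions with LPS and of Cpt1a, the gene with the lowest p with HDHEA. Capitals mark the core AGGTCA, or TGACCT where it lies on the other strand. The windows are chr17:28232504-28232753 for Ppard, chr6:115360894-115361143 for Pparg, and chr19:3323051-3323300 for Cpt1a, all on the + strand.
Ppard: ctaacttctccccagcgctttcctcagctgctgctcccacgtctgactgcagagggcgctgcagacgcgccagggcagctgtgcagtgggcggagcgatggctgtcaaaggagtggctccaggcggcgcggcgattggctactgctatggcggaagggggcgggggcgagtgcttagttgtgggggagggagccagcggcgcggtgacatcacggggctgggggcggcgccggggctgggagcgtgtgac
Pparg: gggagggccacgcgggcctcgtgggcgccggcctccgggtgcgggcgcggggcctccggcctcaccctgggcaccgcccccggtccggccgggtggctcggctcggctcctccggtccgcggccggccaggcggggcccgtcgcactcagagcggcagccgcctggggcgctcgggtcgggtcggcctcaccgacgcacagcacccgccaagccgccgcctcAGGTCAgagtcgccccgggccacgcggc
Cpt1a: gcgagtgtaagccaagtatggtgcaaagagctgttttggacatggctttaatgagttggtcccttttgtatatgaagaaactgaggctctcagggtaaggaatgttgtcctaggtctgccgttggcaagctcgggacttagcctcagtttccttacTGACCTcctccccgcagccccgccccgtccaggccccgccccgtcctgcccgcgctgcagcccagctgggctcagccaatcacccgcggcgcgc
The core lay 28 bases before the start site at the end of this Pparg window and 94 bases before that of Cpt1a. The Ppard window had no match to the core. Searched on both strands, the core was present in 4 of the 9 windows, from 3 genes (Pparg at a pair of starts, Cpt1a and Acadvl), and in 14.02% of 32851 windows of this length. A further Pparg window, chr6:115421816-115422065, had no match, so the printed window does not stand for every Pparg start. A direct repeat of AGGTCA with any 1 base between the copies was in 0 of the 9 windows and in 0.0335% of all. A kappaB element (GGGA, any base, then TTTCC) was also in 0 of 9, and in 0.356% of all. The GC box GGGCGG, a frequent promoter element, was in 6 of 9 and in 32.7% of all, and the Ppard window held 3 of them. A match is only a match of letters, and no binding was measured here.

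**Figure D1:**
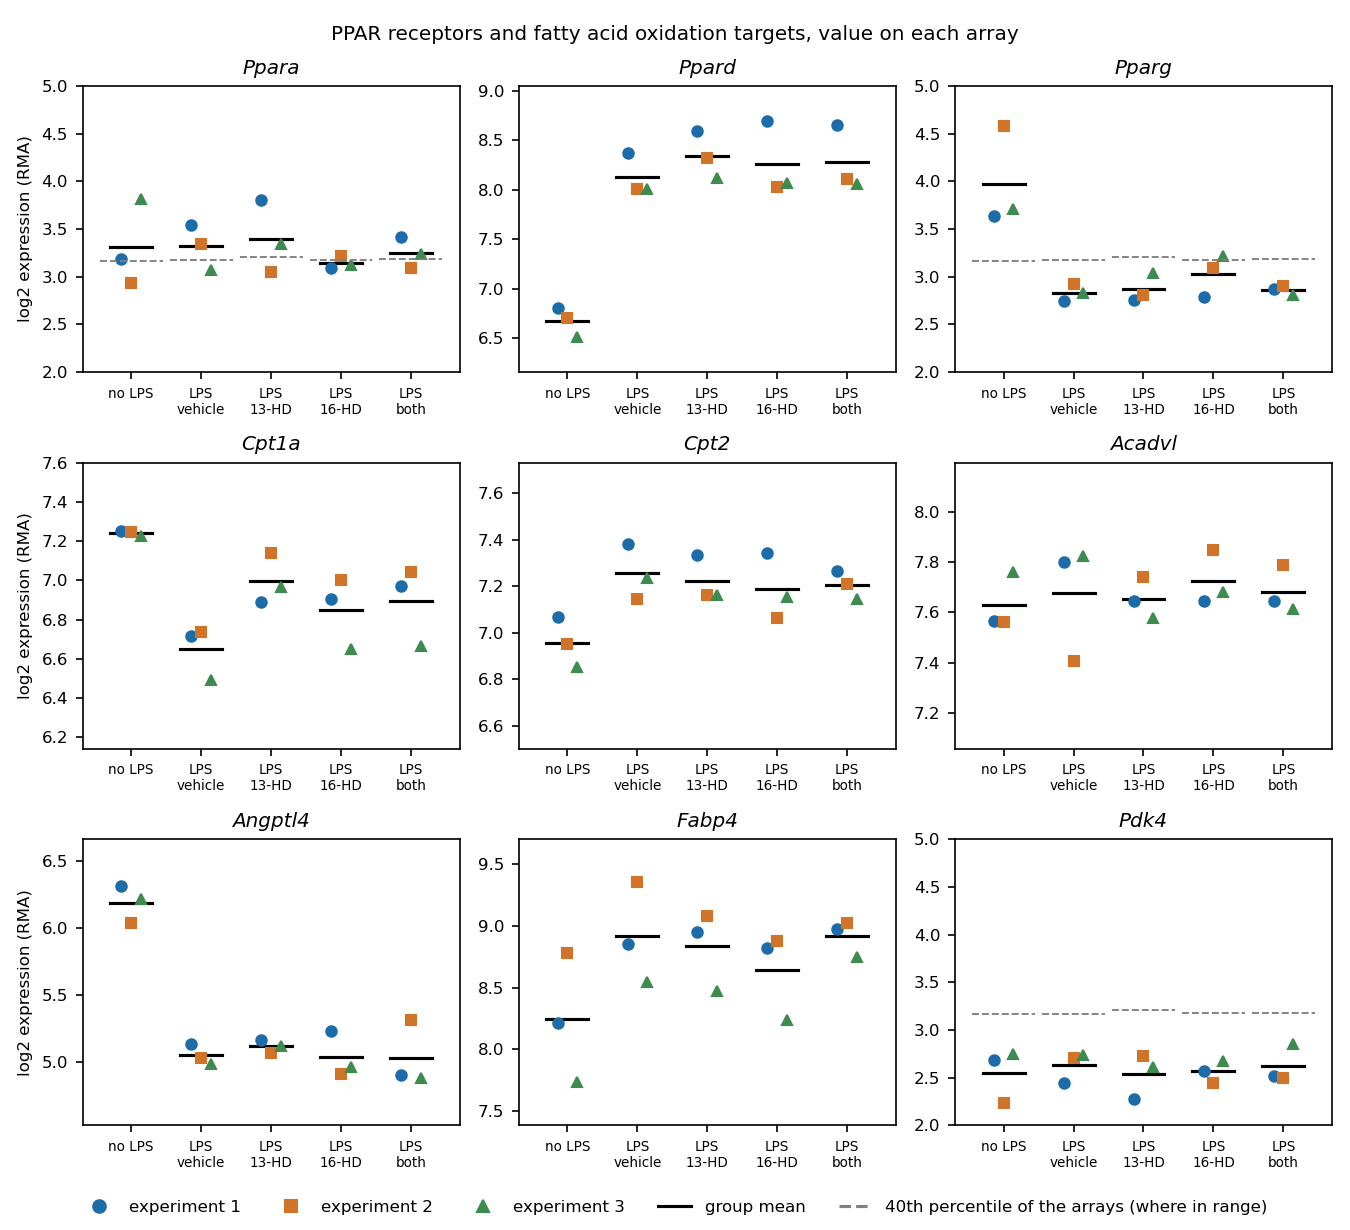
Deposited log2 expression of each gene on each of 15 arrays, 1 panel a gene, with the 5 groups on the x axis (13-HD and 16-HD stand for 13-HDHEA and 16-HDHEA, both for the combined treatment), 1 symbol an experiment, bars at group means (n = 3) and dashes at the 40th percentile of the arrays. The no LPS arrays stand apart from all 12 LPS arrays for Ppard, Pparg, Cpt1a and Angptl4, and Pdk4 lies below the 40th percentile throughout. The share of all genes that separate in this way was not counted. Pparg passed the filter on dim genes through the no LPS arrays, where it is high. Heights are not comparable between panels, since probe sets differ in brightness at equal RNA.

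The values are log2 expression after RMA normalization, and each difference below is a difference of group means on that scale, tested with limma over all genes with Benjamini-Hochberg adjusted p-values. A gene is called where the adjusted p was under 0.05, and a probe set is called dim where it lies under the 40th percentile of its array (3.16 to 3.22). LPS with vehicle against no LPS answers how the activation itself moved these genes. It called 5 of the 8 tested, against 29.8% of all genes tested. Pparg, 1 of the 5, passed the filter through the no LPS arrays, where it is high, and its call had that advantage. Of the other 7 tested, 4 were called. Ppard and Cpt2 rose, as 13.5% of all genes did, and Pparg, Cpt1a and Angptl4 fell, as 16.3% did. Counted by arrays that do not overlap, the same 5 genes separated the groups, as 41.2% of all genes did. The median difference of the 8 was 0.03, and that of all genes 0.00021. In whole cultures, fewer cells that express a gene and less RNA per cell cannot be told apart.

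Ppard was the receptor that rose. Without LPS it read 6.80, 6.70 and 6.51 in experiments 1, 2 and 3, and with LPS and vehicle 8.37, 8.01 and 8.01. All 3 LPS arrays lay above all 3 arrays without LPS, with a gap wider than the spread within either group (SD 0.148 and 0.210, n = 3). The difference was 1.46 (SE 0.200, 95% interval 1.03 to 1.89), or 2.75-fold, at an adjusted p of 6.2e-05 in limma. It was 1.57, 1.31 and 1.5 in the 3 experiments. The rise was also present where HDHEA was given: over the 12 LPS arrays the values ran from 8.01 to 8.70 with a median of 8.11, and none overlapped the 6.51 to 6.80 without LPS. Experiment 1 gave the highest Ppard value in 5 of 5 groups. In absolute size the LPS difference stood at the 96.7th percentile of the genes tested.

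Pparg fell. Its values without LPS were 3.64, 4.58 and 3.71, each above the 40th percentile of its array, and with LPS and vehicle they were 2.75, 2.93 and 2.82, all dim. Experiment 2 was the high array without LPS, and the groups did not overlap with it or without it. The difference was -1.14 (SE 0.197, 95% interval -1.57 to -0.72, limma adjusted p = 0.00045). Pparg entered the test because its 3 arrays without LPS lay above the 40th percentile, so the filter selected it in the direction of this difference. With no filter on low values, over all 22180 genes, the limma adjusted p was 0.00057. Because the LPS arrays were dim, the fold is a bound, at least 1.75-fold lower. The difference was -0.89, -1.66 and -0.88 in experiments 1, 2 and 3, and -0.84 when experiment 2 of the no LPS group was left out. In the HDHEA groups, 1 of the 9 arrays was above the 40th percentile, at 3.21 with 16-HDHEA in experiment 3, so Pparg was above it on 4 of all 15 arrays.

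Ppara was not called. It read 3.18, 2.94 and 3.82 without LPS and 3.54, 3.34 and 3.07 with LPS and vehicle, close to the 40th percentile throughout, and it was above it on 9 of 15 arrays. The ranges overlapped, and experiment 3 moved opposite to the other experiments. The difference was 0.0089 (95% interval -0.45 to 0.47, limma adjusted p = 0.984), an interval that leaves room for a change in either direction. With values this close to dim signal, the lack of a call does not show equal expression.

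**Figure D2:**
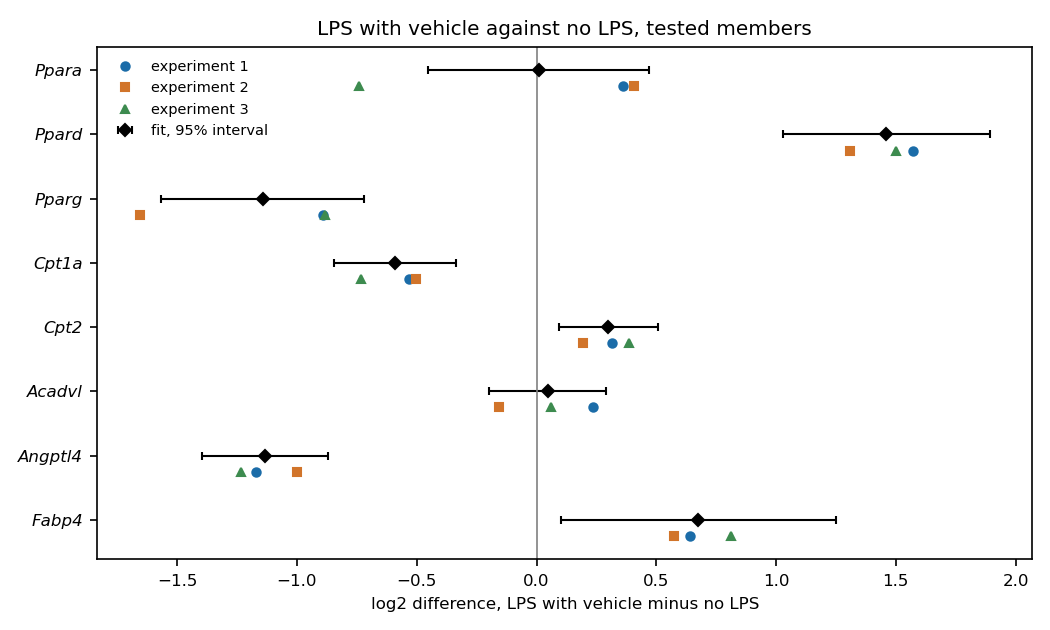
Log2 difference of LPS with vehicle minus no LPS for the 8 tested genes, with the fitted value and its 95% interval (diamond and bar) and the difference within each experiment (symbols). Ppard lies furthest to the right at 1.46, Pparg and Angptl4 furthest to the left at -1.14 and -1.13, and the Ppara interval spans 0.

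Among the enzymes of mitochondrial entry, the outer and inner membrane transferases moved in opposite directions. Cpt1a, which sets the rate of long-chain fatty acid entry, read 7.25, 7.24 and 7.22 without LPS and 6.72, 6.74 and 6.49 with LPS and vehicle. The arrays without LPS were nearly equal (SD 0.0133, n = 3) and all lay above the LPS arrays (SD 0.137, n = 3). Cpt1a fell by 0.59 (SE 0.118, 95% interval -0.84 to -0.34), or 1.51-fold, at an adjusted p of 0.00149 in limma.

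Cpt2, which releases the acyl group from carnitine inside the mitochondrion, read 7.07, 6.95 and 6.85 without LPS and 7.38, 7.15 and 7.24 with LPS and vehicle. The groups did not overlap, by a narrow gap. The difference was 0.30 (SE 0.0964, 95% interval 0.092 to 0.51), or 1.23-fold, at an adjusted p of 0.0301 in limma, and 0.32, 0.20 and 0.39 in the 3 experiments. With experiment as a block the adjusted p was 0.00337. Without the block, the call depended on several arrays: without vehicle replicate 1 or 3 the adjusted p was 0.130 or 0.0595, and without no LPS replicate 2 or 3 it was 0.0698 or 0.115. Fitted on only the 6 arrays compared it was 0.0714.

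Acadvl, the very long chain acyl-CoA dehydrogenase, read 7.56, 7.56 and 7.76 without LPS and 7.80, 7.41 and 7.82 with LPS and vehicle. The ranges overlapped, with the lowest and the highest array both in the vehicle group. The difference was 0.047 (95% interval -0.20 to 0.29, limma adjusted p = 0.813). The 3 HDHEA arrays of experiment 1 carried an identical Acadvl value, 7.65, and 33.8% of all probe sets had a value that at least 2 arrays shared.

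Of the target genes, Angptl4 fell most clearly. It read 6.31, 6.03 and 6.22 without LPS and 5.14, 5.03 and 4.98 with LPS and vehicle. Every array with LPS was lower than every array without, and the LPS arrays were close together (SD 0.0789, n = 3). Angptl4 fell by 1.13 (SE 0.122, 95% interval -1.40 to -0.87), or 2.20-fold, at an adjusted p of 6.29e-06 in limma, the lowest of the 8 tested genes. The difference was -1.17, -1.0 and -1.23 in the 3 experiments.

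Fabp4 moved the other way without reaching a call. It read 8.22, 8.78 and 7.73 without LPS and 8.86, 9.35 and 8.54 with LPS and vehicle. The ranges overlapped, but within each experiment the LPS array was the higher, by 0.64, 0.57 and 0.81. Experiment 2 was highest and experiment 3 lowest in 5 of 5 groups. The difference was 0.68 (SE 0.267, 95% interval 0.10 to 1.25), or 1.60-fold, at an adjusted p of 0.0745 in limma. With experiment as a block the SE was 0.126 and the adjusted p 0.00126, which makes it a call and the members called 6 of 8, against 34.3% of all genes with the block. The arrays centred on their medians gave 0.0404, also a call. In the fit without the block, the value moved when 1 array was left out, which also leaves the groups with unequal sets of experiments. It was 0.42 (adjusted p = 0.297) without no LPS replicate 3, 0.46 (0.275) without vehicle replicate 2, 0.86 (0.0413) without vehicle replicate 3 and 0.94 (0.0160) without no LPS replicate 2.

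Pdk4 was dim on every array. Its 15 values ran from 2.23 to 2.85, all dim, and it was not tested. The no LPS arrays read 2.68, 2.23 and 2.74 and the LPS arrays with vehicle 2.44, 2.71 and 2.73, which overlap. Nothing about a change in Pdk4 can be read from values in this range.

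The LPS effect was read again from the 9 arrays that received LPS with an HDHEA, against the same 3 arrays without LPS. The same 5 genes were called, Ppard and Cpt2 higher and Pparg, Cpt1a and Angptl4 lower, against 35.3% of all genes (15.5% higher and 19.8% lower). Here too Pparg had the advantage of a filter that it passed through the no LPS arrays, where it is high. Because both comparisons use the same arrays without LPS, they are not independent. The Ppard difference was 1.62 (SE 0.163) here and 1.46 with vehicle, and that of Angptl4 was -1.12 (SE 0.0994) here and -1.13 with vehicle. Cpt1a gave -0.33 (SE 0.0965, limma adjusted p = 0.0166) here and -0.59 with vehicle, and the call was lost without no LPS replicate 1 (0.0568) or 2 (0.0541). Cpt2 gave 0.25 (limma adjusted p = 0.0232), lost without no LPS replicate 2 (0.0706) or 3 (0.131). Fabp4 gave 0.56 (limma adjusted p = 0.0631, and 0.000932 with experiment as a block, where 39.8% of all genes were called). In the fit without the block, the Fabp4 difference ran from 0.30 without no LPS replicate 3 to 0.82 without no LPS replicate 2.

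The order of the group means shows the same division. For Ppard, no LPS was lowest and its neighbour, LPS with vehicle, did not overlap it, while the 4 LPS groups overlapped each other in order. For Pparg, Cpt1a and Angptl4, no LPS was highest and did not overlap the next group, and the LPS groups overlapped their neighbours. Pparg had passed the filter through the no LPS arrays, where it is high. LPS with vehicle alone did not overlap no LPS for 41.2% of all genes. The share of all genes with these orders was not counted. For Ppara, Acadvl, Fabp4, Cpt2 and Pdk4 every neighbouring pair overlapped, and no LPS was lowest for Acadvl, Fabp4 and Cpt2.

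Genes of the wider pathway were read from 6 lists of 85 symbols, of which 75 had a probe set and 67 were tested. With LPS, 9 of the 67 rose and 17 fell, where 13.5% of all genes tested rose and 16.3% fell. The 17 include Abcd2 of the peroxisomal list, which passed the filter through the no LPS arrays, where it is high. The 9 are a share near that of all genes. Counts of each list below are to be read against these shares, 29.8% in either direction. Receptor partners and coregulators had 10 tested genes, of which 0 rose and 5 fell (all genes 13.5% and 16.3%), with a median difference of -0.33. Lpin1, a coactivator of Ppara that also makes diacylglycerol, fell by 0.91 (limma adjusted p = 0.00029). Ncoa3, a nuclear receptor coactivator, fell by 0.79 (limma adjusted p = 9.3e-07), Ppargc1b, a coactivator of mitochondrial genes, fell by 0.44, and Med1, the Mediator subunit that nuclear receptors contact, fell by 0.23. The count was 3 without no LPS replicate 3 or vehicle replicate 3.

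Uptake, binding and activation of fatty acids had 9 tested genes, of which 2 rose and 2 fell (all genes 13.5% and 16.3%), with a median of -0.077. Lpl, the lipoprotein lipase that Angptl4 inhibits, fell by 1.15, or 2.22-fold (limma adjusted p = 1.1e-06), with no LPS values of 10.8, 10.9 and 10.6 and vehicle values of 9.57, 9.62 and 9.67. Fabp5, the other fatty acid carrier of macrophages, fell by 0.21, just inside the threshold at an adjusted p of 0.0494 in limma. The acyl-CoA synthetase Acsl4 rose by 0.65 and the fatty acid transporter Slc27a4 rose by 0.61.

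Mitochondrial beta-oxidation had 19 tested genes, of which 2 rose and 4 fell, near the 29.8% of all genes that were called, with a median of -0.018. Acaa2, the thiolase of the last step, fell by 0.74, Hadh, the short-chain hydroxyacyl-CoA dehydrogenase, fell by 0.73, and Acadm, the medium-chain acyl-CoA dehydrogenase, fell by 0.51. Echs1, the enoyl-CoA hydratase, rose by 0.60. The other 13 were not called.

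Peroxisomal beta-oxidation had 10 tested genes, of which 2 rose and 3 fell (all genes 13.5% and 16.3%), with a median of -0.059. Abcd2, a peroxisomal importer of very long chain acyl-CoA, read 4.78, 4.32 and 5.46 without LPS and 3.10, 2.70 and 1.94 with LPS and vehicle, all dim, and was at least 3.22-fold lower (limma adjusted p = 0.00018). Like Pparg, it passed the filter through the 3 arrays without LPS, where it is high, and with no filter the limma adjusted p was 0.00021. Scp2, a thiolase and lipid carrier, fell by 0.37, Hsd17b4, the bifunctional enzyme, fell by 0.34, and the thiolase Acaa1a rose by 0.44.

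Control of pyruvate dehydrogenase, the step that Pdk4 acts on, had 10 tested genes, of which 2 rose and 3 fell (all genes 13.5% and 16.3%), with a median of 0.035. Pdk1, another kinase of the complex, fell by 0.74 (limma adjusted p = 0.00044), and the phosphatase Pdp2 fell by 0.35. Dld and Dlat, subunits of the complex, rose by 0.46 and 0.26. The count of 5 became 3 where only the 6 arrays compared were fitted, and also without vehicle replicate 1 or 3.

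Other PPAR targets had 9 tested genes, of which 1 rose and 0 fell (all genes 13.5% and 16.3%), with a median of 0.13. Hilpda, a lipid droplet protein, rose by 0.95 (limma adjusted p = 0.0104), from 5.68, 5.96 and 5.74 to 6.81, 7.06 and 6.36. Plin2, the coat protein of lipid droplets, differed by -0.22 (limma adjusted p = 0.258, and 0.0405 with experiment as a block, which makes 2 calls in this list). Creg1 differed by 0.082 and Ucp3 by 0.26, neither called. The list had 0 calls without vehicle replicate 2 and 2 without no LPS replicate 3.

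**Figure D3:**
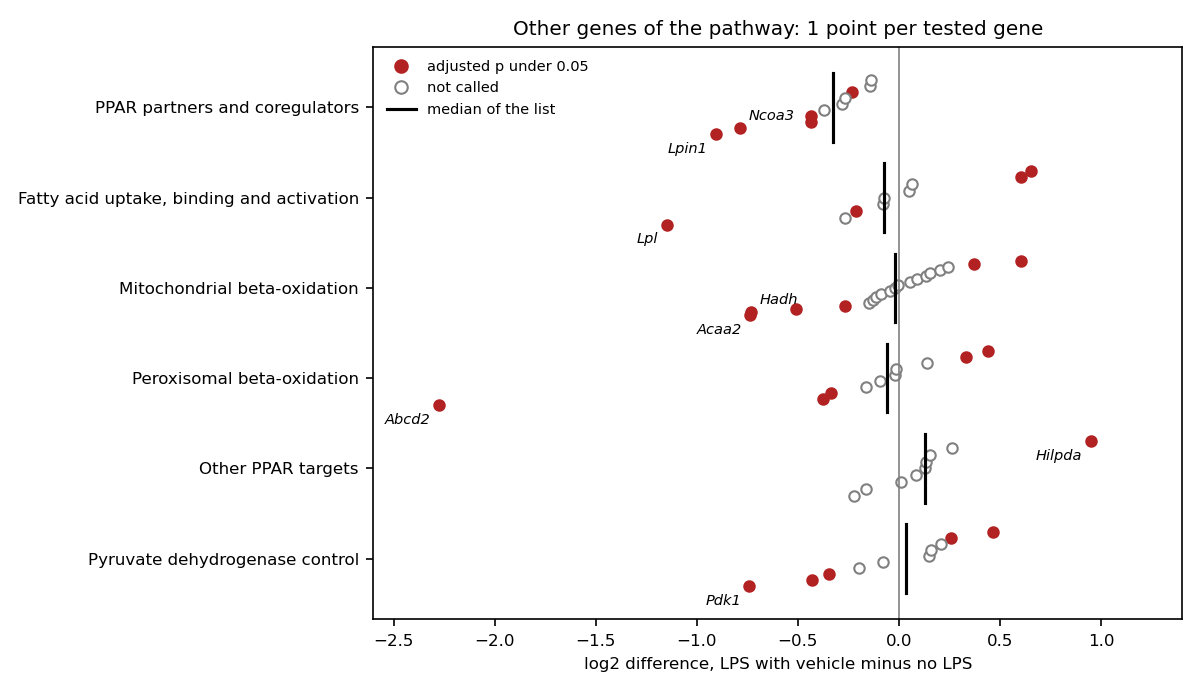
Log2 difference of LPS with vehicle minus no LPS for each of the 67 tested genes of the 6 pathway lists, 1 point a gene, filled where the adjusted p was under 0.05, with a bar at each list's median. The partners and coregulators lie left of 0, at a median of -0.33, and the medians of the other lists lie between -0.077 and 0.13.

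The HDHEA treatments were each set against LPS with vehicle. None of the 8 genes was called in any of the 3 comparisons by limma. Over all genes 0.00646% were called with 13-HDHEA, 0% with 16-HDHEA and 0% with the combined treatment. At an unadjusted p under 0.05 there were 1, 0 and 0 members, against 4.27%, 2.97% and 3.48% of all genes. Counts at an unadjusted p are from the fit without experiment as a block. The 3 comparisons share their vehicle arrays, so a vehicle array that is off shifts all of them, and their values are given side by side for that reason. With the 3 HDHEA groups averaged, 0 members were called (0% of all genes) and 1 had an unadjusted p under 0.05 (3.79% of all genes).

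Cpt1a was that member. It read 6.89, 7.14 and 6.97 with 13-HDHEA, 6.90, 7.0 and 6.65 with 16-HDHEA and 6.97, 7.04 and 6.67 with the combined treatment, where vehicle read 6.72, 6.74 and 6.49. All 3 arrays with 13-HDHEA lay above all 3 vehicle arrays, as 3.33% of all genes did, and the other treatments overlapped vehicle. With 13-HDHEA the difference was 0.35 (95% interval 0.095 to 0.60, unadjusted p = 0.0107 in limma), and it did not pass adjustment (0.9998, and 0.56 with experiment as a block). With 16-HDHEA it was 0.20 (95% interval -0.053 to 0.46) and with the combined treatment 0.24 (95% interval -0.011 to 0.50). With experiment as a block, the unadjusted limma p of Cpt1a was 0.0017, 0.038 and 0.016 with 13-HDHEA, 16-HDHEA and the combined treatment. None passed adjustment with the block (0.56, 0.9996 and 0.94), and the share of all genes at that unadjusted p was not counted. The 3 group means lay between those of vehicle and no LPS. The difference was positive in 3 of 3 experiments with each treatment: 0.17, 0.40 and 0.47 with 13-HDHEA, 0.19, 0.26 and 0.16 with 16-HDHEA, and 0.25, 0.30 and 0.18 with the combined treatment.

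The receptors gave no call with HDHEA. Ppard read 8.59, 8.32 and 8.12 with 13-HDHEA, 8.70, 8.03 and 8.06 with 16-HDHEA and 8.66, 8.11 and 8.06 with the combined treatment. These ranges all overlap that of vehicle, although each array lay above the vehicle array of its own experiment. The differences were 0.21 (95% interval -0.22 to 0.64), 0.13 (-0.30 to 0.56) and 0.15 (-0.29 to 0.58) in the fit without experiment as a block. With the block the unadjusted limma p of Ppard was 0.0505, 0.20 and 0.16. None passed adjustment (0.80, 0.9996 and 0.9993). Pparg differed by 0.034, 0.20 and 0.028, with almost every array dim. Ppara differed by 0.077, -0.18 and -0.070, with intervals that reach from -0.64 to 0.54 across the 3 treatments.

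None of Angptl4, Fabp4, Cpt2 and Acadvl had an unadjusted p under 0.05. Angptl4 read 5.17, 5.07 and 5.12 with 13-HDHEA, 5.23, 4.91 and 4.96 with 16-HDHEA, and 4.90, 5.31 and 4.88 with the combined treatment. These values surround those of vehicle (4.98 to 5.14), and none reached the 6.03 to 6.31 of cells without LPS. The differences were 0.067 (95% interval -0.20 to 0.33), -0.016 (-0.28 to 0.25) and -0.020 (-0.28 to 0.24), so a rise of more than 0.33 would lie outside each interval. Fabp4 differed by -0.082, -0.27 and -0.0020, Cpt2 by -0.034, -0.068 and -0.048, and Acadvl by -0.023, 0.048 and 0.0050. In the fit without experiment as a block, the Fabp4 intervals are the widest of the 8, from -0.85 to 0.57 over the treatments. With the block the SE of Fabp4 was 0.126, where it was 0.267 without, and that of Ppara was larger, at 0.206. The unadjusted limma p of Fabp4 with the block was 0.53, 0.052 and 0.99 for the 3 treatments. None passed adjustment (0.96, 0.9996 and 0.9993).

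**Figure D4:**
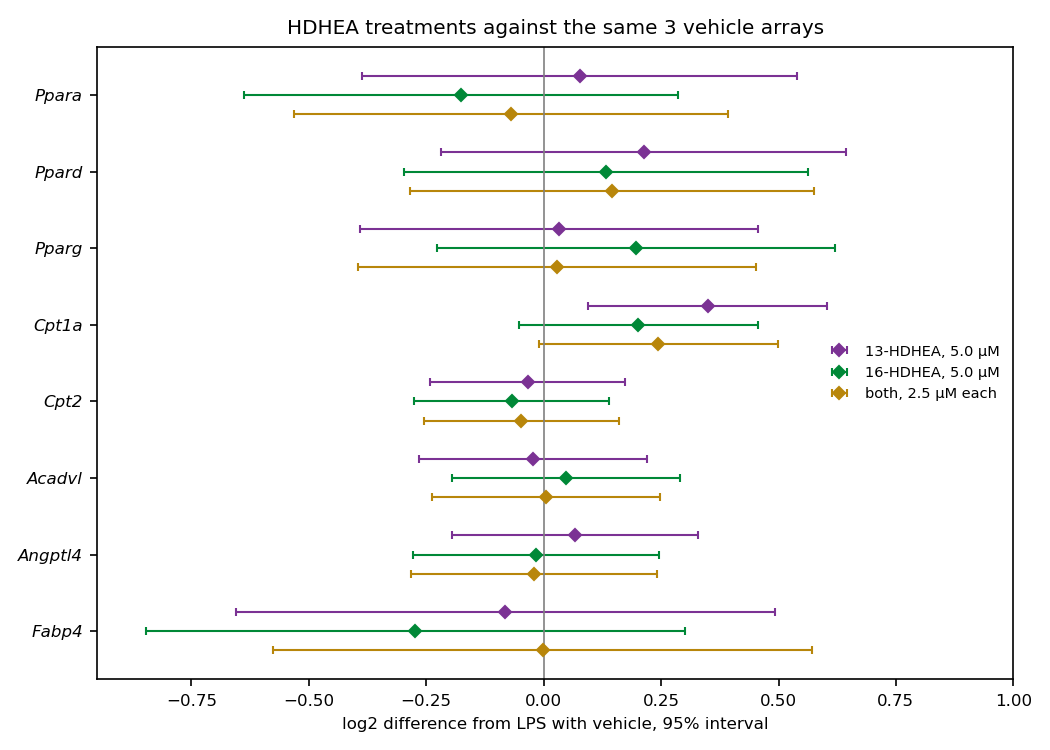
Log2 difference of each HDHEA treatment from LPS with vehicle for the 8 tested genes, with 95% intervals from the fit over all arrays (3 arrays a group, the same 3 vehicle arrays in each difference). The fit had no block for experiment. In it, the interval of Cpt1a with 13-HDHEA, from 0.095 to 0.60, lies above 0, and the others include it.

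Counting arrays above the vehicle array of the same experiment, 3 of the 8 members were above in 3 of 3 experiments with 13-HDHEA (Ppard, Cpt1a and Angptl4), against 11.7% of all genes. With 16-HDHEA these were 3 (Ppard, Pparg and Cpt1a), against 12.5%, and with the combined treatment 2 (Ppard and Cpt1a), against 10.9%. Members below vehicle in 3 of 3 experiments were 0, 2 (Fabp4 and Cpt2) and 0, against 14.8%, 12.6% and 11.7%. Ppard and Cpt1a are in all of these sets above vehicle, which share the vehicle arrays. They are 2 of the 8 members tested, where 270 of all 15468 genes (1.75%) were above vehicle in every experiment with every treatment. No test was made of this pattern.

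Of the 67 tested pathway genes, 0 were called with any HDHEA treatment. After the values were seen, Plin2, Hilpda and Lpin1 were singled out because each was above vehicle in every experiment with every treatment. They are 3 of 67 pathway genes (4.48%), where 270 of all 15468 genes (1.75%) had this pattern, and no test was made of a choice made on these values. Plin2 differed by 0.36 with 13-HDHEA (unadjusted p = 0.0182 in limma), 0.22 with 16-HDHEA and 0.31 with the combined treatment (unadjusted p = 0.0369 in limma), and neither passed adjustment. Its values within experiments 1, 2 and 3 were 0.34, 0.34 and 0.40 with 13-HDHEA. Hilpda differed by 0.42, 0.25 and 0.35, and Lpin1 by 0.25, 0.14 and 0.26, with all of their intervals including 0. Angptl4, a target often read beside them, differed in both directions between experiments under 16-HDHEA and the combined treatment.

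**Figure D5:**
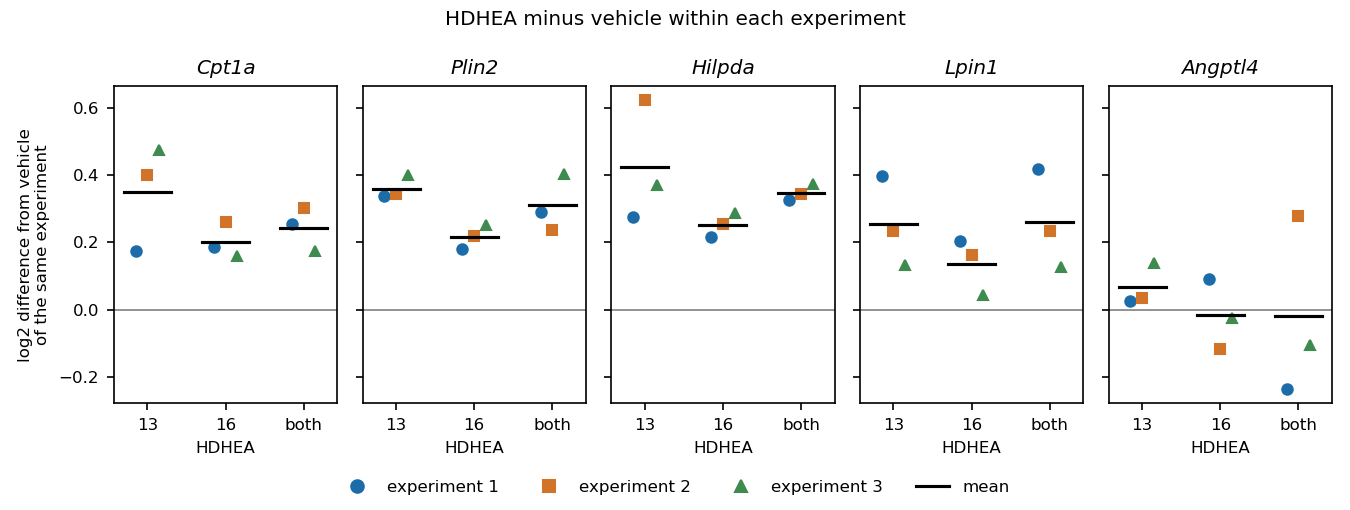
Log2 difference of each HDHEA array from the vehicle array of the same experiment for Cpt1a, Plin2, Hilpda, Lpin1 and Angptl4, 1 symbol an experiment, with bars at the mean. All 9 points of each of the first 4 genes, which were picked after their values were seen, lie above 0, and those of Angptl4 lie on both sides. Within an experiment the 3 treatments share 1 vehicle array.

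The positional isomers were compared at the same dose, 5.0 µM, which is the 1 matched pair of the study. None of the 8 members was called by limma, against 0.00646% of all genes, and 0 had an unadjusted p under 0.05, against 3.10% of all. For Cpt1a, 13-HDHEA minus 16-HDHEA was 0.15 (95% interval -0.11 to 0.40), and -0.01, 0.14 and 0.31 in the 3 experiments. For Ppard it was 0.080 (-0.35 to 0.51), for Angptl4 0.083 (-0.18 to 0.35) and for Fabp4 0.19 (-0.38 to 0.77). For Pparg it was -0.16 (-0.59 to 0.26), for Ppara 0.25 (-0.21 to 0.72), for Acadvl -0.071 (-0.31 to 0.17) and for Cpt2 0.034 (-0.17 to 0.24). The intervals allow differences of these sizes, so equal action of the isomers was not shown. The combined treatment held 2.5 µM of each compound, and its values stand beside the others without a comparison of doses.

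The labelled cell type was read from marker lists. All 10 macrophage markers were above the 40th percentile on every array. With LPS 4 of them rose and 1 fell (all genes 13.5% and 16.3%), and 5 were not called, at a median difference of -0.0041. The mean level of the macrophage list was nonetheless higher with LPS and vehicle, at 10.69 to 10.86, than without LPS, at 9.99 to 10.18. The 6 LPS response genes rose by between 2.55 and 8.92. Fat cells, the best known site of Pparg and Fabp4, had 7 marker genes with a probe set. Adipoq and Adig were dim on every array, and Plin1 and Retn were above the 40th percentile on all 15. None of the 5 tested of this list was called with LPS, against 29.8% of all genes. The mean level of this list was 3.11 to 3.24 without LPS and 3.05 to 3.11 with LPS and vehicle, and its part in the Pparg difference was not tested. Of 8 hepatocyte markers 0, of 8 muscle markers 5 and of 8 endothelial markers 3 were above it on all arrays. Among the 5 muscle markers Ckm fell by 0.43 and Tnnt3 fell by 0.42 with LPS, while Acta1, Mb and Des differed by 0.16, 0.19 and 0.31 without a call. Among the 3 endothelial markers Vwf fell by 0.49, Cdh5 rose by 0.42 and Pecam1 differed by 0.37 without a call.

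The genes most like each called member over the 15 arrays were found by the root mean square difference of log2 values after centring each gene, among 13792 candidates. For Ppard they were Slc25a37 (0.131), Diaph2 (0.134) and Sqor (0.140), where Ppard itself varied by 0.675 around its mean. For Pparg they were Olfm4 (0.166), Msra (0.177) and Cep72 (0.181), at a variation of 0.489. Those nearest Angptl4 were Zfp385a (0.109), Fry (0.110) and Ints10 (0.134), at 0.469. Cpt1a came nearest to Fblim1 (0.119), Zkscan17 (0.121) and Ptgr1 (0.122), at 0.227, and Cpt2 to Farsb (0.0640), Appbp2 (0.0667) and Slc30a9 (0.0677), at 0.139. For Cpt1a and Cpt2 the difference to the nearest gene was thus a larger share of their own variation than for Ppard and Angptl4.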

How the data were processed

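Total RNA was labelled with biotin through an Affymetrix whole-transcript sense assay and hybridised to 15 arrays, per the labels' protocols. The authors deposited log2 values for each probe set, made with RMA per the submitters' processing notes. RMA corrects background, quantile-normalizes arrays and summarises probes, so a shift shared by most genes is lost and changes of dim probe sets are compressed. RMA's version and chip definition were not given in the sources used here. Array medians ran from 3.62 to 3.69.

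Of 41345 probe sets, 25335 were listed in the platform gene table, 23521 with 1 gene symbol and 1814 with several. The probe set of highest mean over 15 arrays was kept for each of 22180 genes. Genes above the array's own 40th percentile in at least 3 arrays were tested (15468, with 6712 set aside). A dimmer group whose mean was under the average 40th percentile of its own arrays was set to that percentile, and the fold is then a lower bound.

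Group means were fitted over all 15 arrays by lmFit and eBayes of limma 3.58.1 (R 4.3.3; residual degrees of freedom 10, prior 3.59), two-sided, with Benjamini-Hochberg adjustment over all genes tested and calls at 0.05. The fit was also run on simulated data with independent noise on each array. No difference between experiments was simulated, so that run does not check the fit for arrays that share an experiment. Alternatives were experiment as a block, other filters, median centring, repeated quantile normalization, other eBayes settings, means of all probe sets of a gene, only the arrays compared, and each array left out. Same-numbered arrays share an experiment, per the labels. Over 30 such pairs, the correlation of deviations from the group mean was 0.084 to 0.40, with 28 above 0.1, and 15 of 15 arrays correlated best with their own number. The block leaves 8 residual degrees of freedom.

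The members and the gene lists were chosen with earlier results of these data known. Named were all 9 members, up to 4 tested genes of each pathway list with the smallest p with LPS, the 3 genes most like each called member, and markers above the 40th percentile on all arrays. Predicted and RNA genes were left out of the search for like genes. Promoter sequences came from a RefSeq table of GRCm38.p6, whose windows hold 250 bases before and 50 after each start, and only the former were searched. No build was named for the array's annotation, so gene coordinates are left out.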

Additional observations from a re-analysis of the deposited data

How the results depend on the processing

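The 56 differences of members were recomputed under the alternatives, which gave 866 values. Of these, 790 kept their direction and their side of the threshold, 9 lost a call, 10 gained one, and 57 changed sign, all of them differences that were not called. The calls of Ppard, Pparg, Cpt1a and Angptl4 with LPS against no LPS held with each array left out, and Pparg was not tested under the 60th percentile filter. With experiment as a block, Fabp4 gained a call (0.68, limma adjusted p = 0.00126) and the other PPAR targets had 2 calls; no other member gained or lost a call and no other count moved by over 1.5 times. With only the arrays compared, pyruvate dehydrogenase control had 3 calls. With 1 array left out, the calls were 3 to 5 for partners and coregulators, 0 to 2 for other PPAR targets and 3 to 5 for pyruvate dehydrogenase control. Repeated quantile normalization turned Acadvl with 13-HDHEA to 0.0037 and Ppara with LPS to -0.048. Median centring turned Fabp4 with the combined treatment to 0.0075 and Ppara in LPS with HDHEA against no LPS to 0.023. The cause was not tested. Ranges with 1 array left out that cross 0 follow. For LPS against no LPS, Ppara from -0.18 to 0.26 and Acadvl from -0.026 to 0.18. For 13-HDHEA against vehicle, Ppara from -0.12 to 0.25, Pparg from -0.055 to 0.090, Fabp4 from -0.27 to 0.14, Acadvl from -0.16 to 0.050 and Cpt2 from -0.091 to 0.029. For 16-HDHEA against vehicle, Ppard from -0.084 to 0.25, Angptl4 from -0.11 to 0.044 and Acadvl from -0.088 to 0.12. For the combined treatment against vehicle, Ppara from -0.19 to 0.041, Ppard from -0.045 to 0.27, Pparg from -0.015 to 0.075, Angptl4 from -0.16 to 0.055, Fabp4 from -0.19 to 0.22, Acadvl from -0.13 to 0.078 and Cpt2 from -0.10 to 0.016. For the mean of the HDHEA groups against vehicle, Ppara from -0.18 to 0.054, Angptl4 from -0.036 to 0.054, Fabp4 from -0.31 to 0.098, Acadvl from -0.13 to 0.083 and Cpt2 from -0.10 to 0.014. For 13-HDHEA against 16-HDHEA, Ppard from -0.044 to 0.30, Fabp4 from -0.014 to 0.37 and Cpt2 from -0.028 to 0.11. For the mean of LPS with HDHEA against no LPS, Ppara from -0.24 to 0.20. Pdk4, Pparg with LPS and Ppara lay close to or under the 40th percentile, so signal over background limits what can be read of them.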
